A study of Homo sapiens with 3 samples.

Results

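The autophagy genes examined here are 40 genes of the core machinery and the cargo receptors, taken by name as a fixed list, of 22430 genes with a named probe on the arrays. They were measured in TK-10, an established line from a human renal cell carcinoma, on 3 single-colour Agilent arrays with 1 array per condition. The control cells received 0.1% DMSO, the cordyceps cells 750 ug/mL cordyceps and the sunitinib cells 10 uM sunitinib, and RNA was taken after 48 h in each case. Sunitinib is a receptor tyrosine kinase inhibitor used against renal cell carcinoma. The label of the cordyceps array names the fungus, whereas the study's methods name cordycepin, a nucleoside made by it, at another dose, so that which agent was applied cannot be told from these sources. The labels do not say whether the treated cultures also received DMSO. All 3 cultures shared a medium with fetal bovine serum, nicotinamide, troglitazone and zinc sulfate. The study's methods name DMEM with fetal bovine serum and penicillin-streptomycin, and do not mention nicotinamide, troglitazone or zinc sulfate. TK-10 is 1 established line, and the labels name no separate cultures within a condition.

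Autophagy delivers cytoplasm, organelles and protein aggregates to the lysosome in a double-membraned vesicle, the autophagosome. The ULK1 kinase complex starts its formation, a class III phosphatidylinositol 3-kinase complex marks the membrane, lipid carriers and scramblases supply it with lipid, and conjugation enzymes attach proteins of the ATG8 family to it. Cargo receptors bind ubiquitinated cargo on one side and ATG8 proteins on the other. Much of the pathway is controlled by phosphorylation and by the turnover of its own proteins, and the SQSTM1 protein is itself degraded by autophagy, so transcript levels are not a measure of autophagic flux, which these arrays do not record.

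Each gene's processed signal was divided by the 75th percentile of its own array, and this multiple is called the scaled signal below. That percentile was a signal of 165 on the control array, 138 on the cordyceps array and 78.2 on the sunitinib array, so the whole sunitinib array was dimmer. A log2 ratio is the scaled signal of a treated array over that of the control array. Its error is the scanner software's own error of both signals, with a median of 0.20 over the autophagy genes on either treated array, and a ratio is said to pass the technical limit where it exceeds 1.96 times that error. This error covers the spot and the scan, not the spread between cultures. With 1 array per condition no test between conditions was possible, no p-value is given, and how precise a ratio is depends on these 3 arrays alone.

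Between 37.8% and 45.5% of all probes were well above background on the 3 arrays, which shared a slide, and no spot was saturated. The cordyceps array had a bright area of 578 spots and the sunitinib array one of 28 spots, and no probe of the 40 genes lay in either. All 6 kidney epithelium markers with a probe (PAX8, PAX2, LHX1, KRT8, KRT18 and EPCAM) were well above background on all 3 arrays. Of 4 fibroblast markers, COL1A1, DCN and LUM were well above background on the control and cordyceps arrays, and the summed scaled signal of the 4 was 38.9 on the control, 9.80 on the cordyceps and 5.56 on the sunitinib array. The other marker lists were low, apart from CD79A: the leukocyte markers summed to 12.8, 12.1 and 21.8 (2, 1 and 2 of 3 above background), the endothelial markers to 1.27, 1.16 and 1.02 (2, 2 and 1 of 3), and the erythroid marker HBB was not well above background. The part of these markers in the ratios below was not tested.

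The machinery was almost completely detected. The 40 genes were covered by 59 probes, with 1 probe for each of 23 genes and several for 17, and the probe with the highest mean signal stood for the gene. The signal was well above background on all 3 arrays for 38 genes and on 2 arrays for ATG14. Only MAP1LC3A, which encodes the LC3A member of the ATG8 family, was not well above background on any of the 3 arrays, with processed signals of 3.87, 6.36 and 3.85, and it was not compared.

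**Figure D1:**
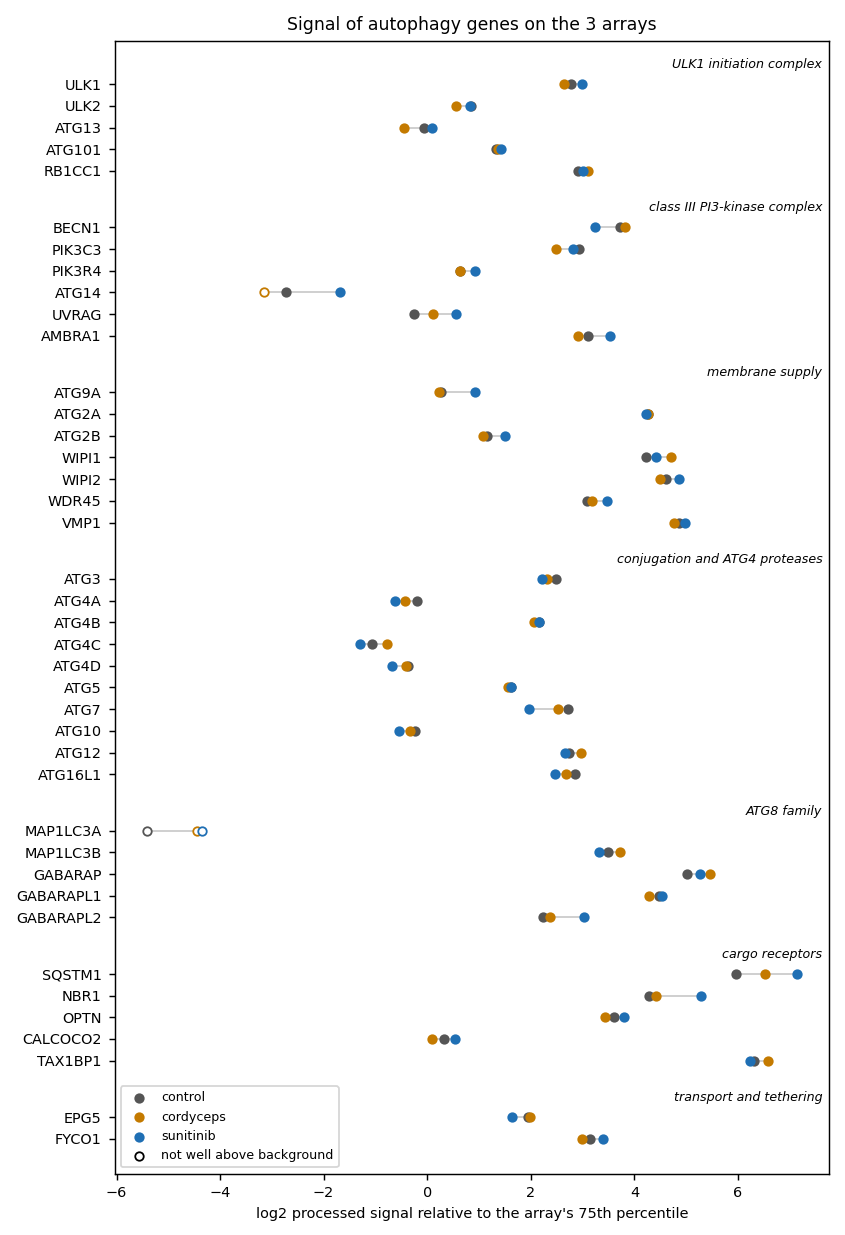
Scaled signal of the 40 autophagy genes on the 3 arrays, by role in the pathway. The x axis gives log2 of the processed signal relative to the array's 75th percentile, each circle is 1 array and open circles are not well above background. Levels of different genes are not comparable, since each is read by its own probe. The circles of a gene mostly lie close together, and the sunitinib circle stands to the right of the other 2 for SQSTM1, NBR1, GABARAPL2, UVRAG, ATG9A and ATG14 and to the left for ATG7 and BECN1.

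On the cordyceps array the autophagy genes were close to their control levels. Of the 39 genes compared, none was over 2-fold higher or lower, where 2.93% and 2.74% of the 14773 genes compared were, and none passed 1.5-fold either, where 8.66% and 8.89% of all genes did. Their median log2 ratio was -0.04 against 0 for all genes, and the ratios ran from -0.45 to 0.54. The SD of the ratios measured on both arrays was 0.24 over 38 autophagy genes and 0.58 over all 13030 genes so measured. The SD over all genes includes probes in the bright area of the cordyceps array, where no autophagy probe lay. The quartiles were -0.16 and 0.13 for the autophagy genes compared and -0.25 and 0.24 for all genes compared. SQSTM1, WIPI1 and GABARAP were higher past the technical limit and PIK3C3 was lower, which is 3 and 1 of 38, beside 15.0% and 13.4% of all genes. None of the 3 passed the limit after quantile normalization, after normexp or on the unscaled values, and with each array scaled to its median 8 were higher and 0 lower past it.

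On the sunitinib array the spread was wider and lay more on the higher side. Of 39 genes, SQSTM1 and ATG14 were more than 2-fold higher and none was more than 2-fold lower, beside 6.41% and 6.49% of the 14894 genes compared. SQSTM1, ATG14, NBR1, UVRAG, GABARAPL2 and ATG9A were more than 1.5-fold higher and ATG7 was more than 1.5-fold lower. These 6 and 1 of 39 stand beside 15.4% and 15.6% of all genes, so the higher share was that of the array as a whole and the lower share was below it. The median log2 ratio was 0.11 against 0 for all genes, the ratios ran from -0.76 to 1.17, and their SD was 0.43 against 0.69 over 12992 genes. Past the technical limit were 7 higher (those 6 and AMBRA1, the latter by 1 of its 2 probes) and 2 lower (ATG7 and BECN1) of 39, beside 22.6% and 21.8% of all genes. Without scaling, as the values were deposited, the median of all genes on the sunitinib array was -1.05 and of these 6 genes only SQSTM1 kept a positive ratio.

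**Figure D2:**
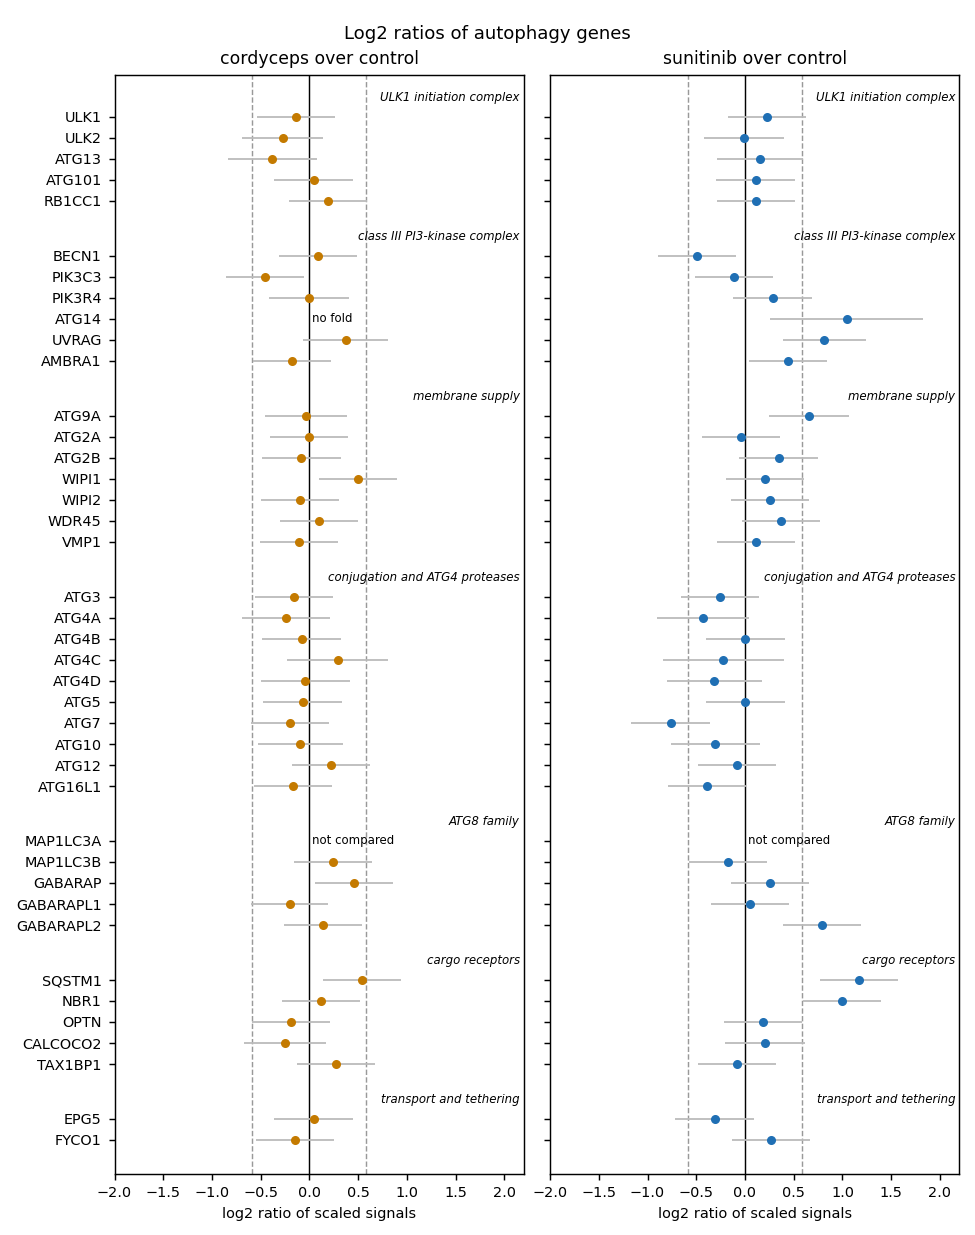
Log2 ratios of the 40 autophagy genes on the cordyceps array (left) and the sunitinib array (right) over the control array, from scaled signals. Points are 1 array over 1 array, grey bars are the 95% limits of technical error, and dashed lines mark 1.5-fold. On the left every point lies between the dashed lines, and on the right 6 lie beyond the upper line and ATG7 beyond the lower one.

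**Figure D3:**
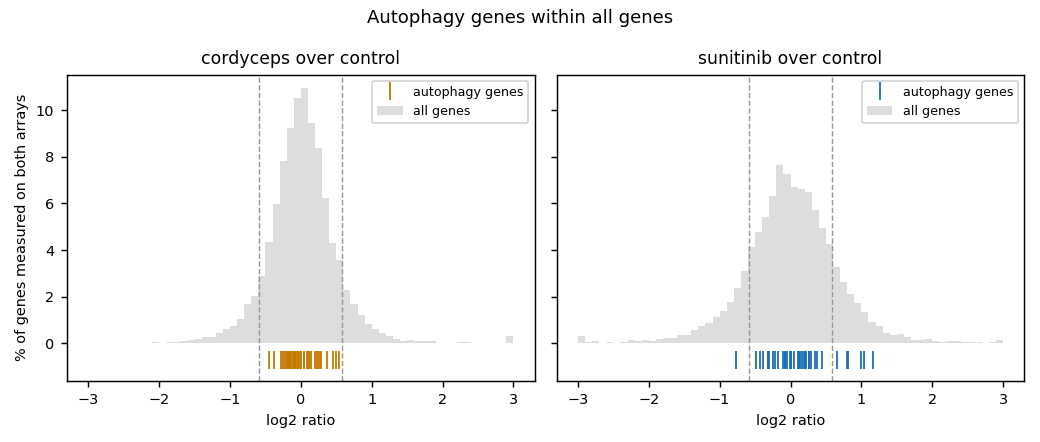
Histogram of the log2 ratios of all genes measured on both arrays (grey, as % of those genes) with the autophagy genes as coloured ticks, for cordyceps (left) and sunitinib (right) over control. Dashed lines mark 1.5-fold and the end bins hold all genes beyond them. The ticks span -0.45 to 0.54 on the left and -0.76 to 1.17 on the right, within the range of all genes.

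The cargo receptors held the largest ratio of each comparison. SQSTM1, or p62, which binds ubiquitin and LC3 and also sequesters KEAP1, had a scaled signal of 62.7 on the control, 91.3 on the cordyceps and 141 on the sunitinib array. Both treated arrays were above the control, with log2 ratios of 0.54 ± 0.20 and 1.17 ± 0.20 (technical error, 1 array each), or 1.46-fold and 2.25-fold. Its deposited signals were 10315, 12585 and 11012, so that on the unscaled values the sunitinib ratio was 0.09. NBR1, the receptor that shares the domain plan of SQSTM1, had scaled signals of 19.6, 21.3 and 39.0. Only the sunitinib array stood apart, at a log2 ratio of 0.99 ± 0.20 or 1.99-fold, against 0.12 ± 0.20 for cordyceps. On the unscaled values the NBR1 ratio for sunitinib was -0.079, still 0.98 above the median of all genes. A second NBR1 probe, for another transcript, was well above background on the control array only and gave no fold for sunitinib.

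The other receptors stayed within the technical limit on both arrays. OPTN, a receptor used in the removal of mitochondria and bacteria, had scaled signals of 12.2, 10.8 and 13.9. CALCOCO2, or NDP52, which binds galectin-coated bacteria and damaged membranes, had 1.26, 1.06 and 1.45. TAX1BP1, its relative in aggregate clearance, had 79.3, 95.8 and 75.02, the only receptor with a negative sunitinib ratio (-0.08 ± 0.20). Since a difference between ratios of genes on the same pair of arrays does not move when an array is multiplied by a constant, receptors were also set against each other. On the sunitinib array 6 of the 10 pairs of receptors differed past the limit of their combined error. SQSTM1 exceeded TAX1BP1 by 1.25 ± 0.29, OPTN by 0.99 ± 0.29 and CALCOCO2 by 0.96 ± 0.29 on the log2 scale. NBR1 exceeded the same genes by 1.07, 0.81 and 0.79, each ± 0.29, and SQSTM1 and NBR1 did not differ past the limit. On the cordyceps array 2 of 10 pairs did, with SQSTM1 above CALCOCO2 by 0.79 ± 0.30 and above OPTN by 0.73 ± 0.29. The share of all gene pairs past such a limit was not computed, here or for the groups below. The pair counts are therefore not set against the array as a whole. Over all genes compared, the quartiles of the ratios were -0.37 and 0.36 for sunitinib and -0.25 and 0.24 for cordyceps.

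Of the ATG8 family, whose proteins coat the autophagosome membrane, 4 of 5 genes were compared, and 1 passed the technical limit on each treated array. MAP1LC3B, the source of LC3B, had scaled signals of 11.2 on the control, 13.3 on the cordyceps and 9.92 on the sunitinib array. Its log2 ratios of 0.24 ± 0.20 and -0.17 ± 0.20 were within the technical limit, and a second probe gave 0.02 and 0.09. GABARAP had 32.3, 44.2 and 38.6, and only its cordyceps ratio of 0.46 ± 0.20, or 1.37-fold, passed the limit. GABARAPL1, a stress-responsive relative of GABARAP, had 22.4, 19.4 and 23.2, with ratios of -0.20 and 0.05. GABARAPL2, also called GATE-16, had 4.70, 5.17 and 8.14. Its sunitinib array lay above the other 2, at a log2 ratio of 0.79 ± 0.20 or 1.73-fold, although the unscaled ratio was -0.28. Within the sunitinib array GABARAPL2 exceeded MAP1LC3B by 0.97 ± 0.29 and GABARAPL1 by 0.74 ± 0.29, which were 2 of 6 pairs past the limit, and on the cordyceps array 1 of 6 pairs passed, GABARAP over GABARAPL1 by 0.66 ± 0.29.

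The conjugation enzymes and ATG4 proteases that load ATG8 proteins onto the membrane had a median log2 ratio of -0.28 over 10 genes on the sunitinib array, with 8 of 10 below 0, as were 7247 of 14894 genes in all. By the brightest probes 9 of the 10 were within the technical limit. ATG7, the E1-like enzyme that activates both ATG8 and ATG12, was the lowest of the 39 genes compared. Its scaled signals were 6.58 on the control, 5.74 on the cordyceps and 3.88 on the sunitinib array. The ratio was -0.76 ± 0.20 for sunitinib, or 1.70-fold lower, and -0.20 ± 0.20 for cordyceps. A second ATG7 probe, at 2.84, 2.60 and 2.74, did not show this and gave -0.05 ± 0.21 for sunitinib, so the lower level rests on 1 of 2 probes. The E2-like enzymes ATG3 and ATG10 were at -0.25 ± 0.20 and -0.31 ± 0.23, and ATG16L1, which places the E3-like complex on the membrane, was at -0.39 ± 0.20. Its partners ATG5 and ATG12 were at 0.00 ± 0.21 and -0.08 ± 0.20. The proteases ATG4A, ATG4C and ATG4D were at -0.43 ± 0.24, -0.22 ± 0.32 and -0.31 ± 0.25, within the technical limit. The highest ratio of the group was that of the protease ATG4B, also 0.00 ± 0.20. In pairs within the array, ATG7 lay below ATG4B, ATG5 and ATG12, 3 of 45 pairs past the limit.

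On the cordyceps array the same 10 genes had a median of -0.09, none passed the technical limit and 0 of 45 pairs differed past it. ATG4C, a protease that trims ATG8 proteins, was highest at 0.29 ± 0.26 and ATG4A lowest at -0.24 ± 0.23. The ATG5 and ATG4B probes differed among themselves. A second ATG5 probe gave 0.60 ± 0.22 for sunitinib where the brighter one gave 0.00, and a second ATG4B probe, for another transcript, gave -0.62 ± 0.21 for cordyceps where the brighter one gave -0.08.

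**Figure D4:**
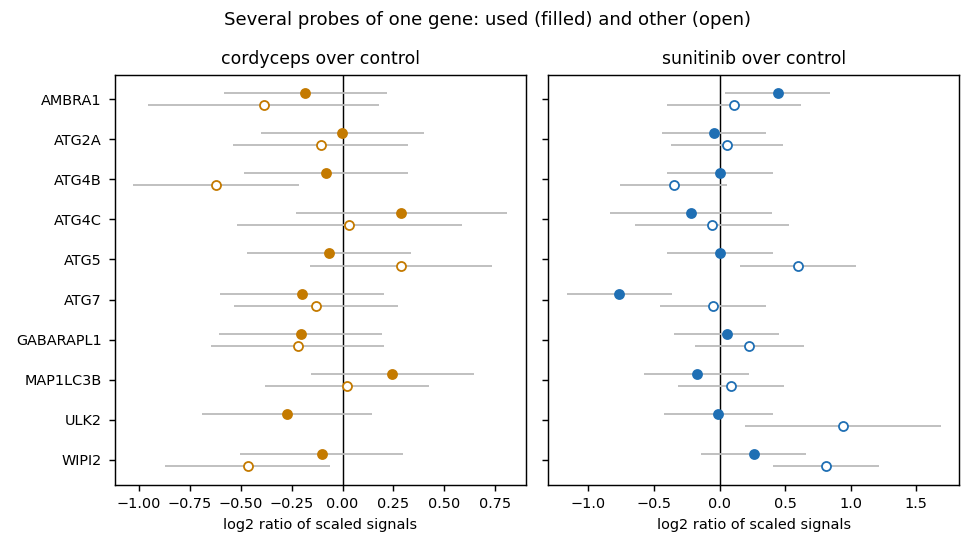
Log2 ratios of the 10 autophagy genes with more than 1 probe measured on both arrays of the sunitinib comparison, for cordyceps (left) and sunitinib (right) over control. The dim second ULK2 probe has no point for cordyceps, and ATG13, whose second probe was measured for cordyceps only, is not shown. Filled points are the probe used, open points the others, and grey bars the 95% limits of technical error. The probes of ULK2, ATG7, ATG5 and WIPI2 lie farthest apart for sunitinib, and those of ATG4B for cordyceps.

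In the class III PI3-kinase complex BECN1 was lower and ATG14, UVRAG and AMBRA1 were higher past the technical limit with sunitinib. This is 1 lower and 3 higher of 6 genes, beside 21.8% and 22.6% of all genes. The SD of the ratios was 0.57 for sunitinib and 0.31 for cordyceps, below the 0.69 and 0.58 of all genes, which include the bright areas. BECN1, the scaffold shared by its forms, had scaled signals of 13.2, 14.1 and 9.41, and its sunitinib ratio of -0.49 ± 0.20, or 1.40-fold lower, passed the technical limit. PIK3C3, the lipid kinase VPS34, had 7.63, 5.57 and 7.07 and had the lowest ratio of the genes compared on the cordyceps array, at -0.45 ± 0.20 or 1.37-fold lower. UVRAG, which steers the complex to endosomes and to autophagosome maturation, had 0.839, 1.09 and 1.48, with ratios of 0.37 ± 0.22 for cordyceps and 0.81 ± 0.22 or 1.76-fold for sunitinib (unscaled -0.26). ATG14, the subunit that directs the complex to nascent autophagosomes, was dim throughout. Its processed signals were 24.8 on the control and 24.2 on the sunitinib array, near the lowest signals counted as above background there (18.2 and 18.3), and 15.6 on the cordyceps array, which was not well above background. The sunitinib ratio was 1.04 ± 0.40 after scaling but -0.032 without it and 0.16 after the normexp background correction, and cordyceps gave no fold.

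AMBRA1, a regulator of BECN1 and ULK1, was at 0.44 ± 0.20 on the sunitinib array by the brighter probe and at 0.11 ± 0.26, within the limit, by the other, and PIK3R4, the VPS15 kinase-like subunit, at 0.28 ± 0.21. Set against each other within the sunitinib array, 6 of 15 pairs of the complex differed past the limit. BECN1 lay below UVRAG by 1.30 ± 0.30, below ATG14 by 1.53 ± 0.45, below AMBRA1 by 0.93 ± 0.29 and below PIK3R4 by 0.77 ± 0.29, and PIK3C3 lay below UVRAG by 0.92 ± 0.30 and below ATG14 by 1.15 ± 0.45. On the cordyceps array 1 of 10 pairs did, UVRAG over PIK3C3 by 0.83 ± 0.30. The sunitinib pairs with ATG14 rest on its dim signals, and its ratio was smaller after the normexp background correction.

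The promoters of the 2 receptors with the largest sunitinib ratios are shown, with those of the only members searched whose promoter held an E-box. Each is given as the 100 bases that precede a transcription start of RefSeq (GRCh38.p14), read 5′ to 3′ on the gene's strand. Of the 40 genes 35 had a listed promoter, and RB1CC1, UVRAG, ATG4D, MAP1LC3A and EPG5 were not searched. SQSTM1 and NBR1 have several listed starts, and the one farthest downstream is printed. Capitals mark TCACGTG or its reverse complement CACGTGA, the E-box core of sites bound by TFEB, a transcription factor of lysosomal and autophagy genes.
SQSTM1, chr5:179820805-179820904, plus strand: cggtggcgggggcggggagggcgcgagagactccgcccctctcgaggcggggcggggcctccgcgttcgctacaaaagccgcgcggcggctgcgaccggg
NBR1, chr17:43171114-43171213, plus strand: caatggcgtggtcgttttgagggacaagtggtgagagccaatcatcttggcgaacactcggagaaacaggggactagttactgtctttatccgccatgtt
ATG14, chr14:55411831-55411930, minus strand: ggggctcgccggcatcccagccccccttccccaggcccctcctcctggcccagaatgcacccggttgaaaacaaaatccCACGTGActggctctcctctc
ATG3, chr3:112561963-112562062, minus strand: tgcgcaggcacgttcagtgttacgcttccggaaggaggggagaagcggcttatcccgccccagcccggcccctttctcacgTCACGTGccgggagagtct

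The capitals begin 21 bases before the start in ATG14 and 19 bases before it in ATG3. The sunitinib ratio of ATG14, a dim gene, was 1.04 ± 0.40 after scaling and -0.032 without it. That of ATG3 was -0.25 ± 0.20, within the technical limit. In the 250 bases before the start, searched on both strands, TCACGTG was in 2 of 45 promoters of 35 autophagy genes (4.44%) and in 3.31% of the 35116 promoters listed. The shorter CACGTG, which every TCACGTG contains, was in the same 2 promoters (4.44%) and in 6.34% of all. The FOXO motif GTAAACA was in 1 promoter, that of CALCOCO2 (2.22% against 2.98%). The antioxidant response motif TGACNNNGC was in the promoters of ATG101, CALCOCO2 and MAP1LC3B (6.67% against 10.9%), and the ATF4 motif TGATGNAAT was in none (0.888% of all). These letters say nothing of whether a factor was bound in these cells.

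By the brightest probe of each gene, the log2 ratios of the membrane suppliers ran from -0.11 to 0.49 for cordyceps, with a median of -0.03. For sunitinib they ran from -0.04 to 0.66, with a median of 0.26. ATG9A, the scramblase carried by vesicles that seed the autophagosome, had scaled signals of 1.20 on the control, 1.17 on the cordyceps and 1.90 on the sunitinib array. Only sunitinib differed, at 0.66 ± 0.21 or 1.58-fold, and the unscaled ratio was -0.41. WIPI1, a phosphoinositide-binding propeller protein, had 18.6, 26.2 and 21.5. Its cordyceps ratio of 0.49 ± 0.20 or 1.41-fold was the only one of this group past the limit on that array by the brightest probes. VMP1, a scramblase of the endoplasmic reticulum, was the lowest of the group for cordyceps at -0.11 ± 0.20, and ATG2A, a lipid transfer protein, the lowest for sunitinib at -0.04 ± 0.20. WDR45 and ATG2B, a further propeller protein and lipid carrier, were at 0.37 ± 0.20 and 0.35 ± 0.21 on the sunitinib array.

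WIPI2, the propeller protein that recruits ATG16L1, was read differently by its 2 probes. The brighter one had scaled signals of 24.3, 22.6 and 29.1, with ratios of -0.10 ± 0.20 and 0.26 ± 0.20. The other, for another transcript, had 3.53, 2.56 and 6.20, with ratios of -0.47 ± 0.21 for cordyceps and 0.81 ± 0.20 for sunitinib. Both probes gave the same sign in each comparison, and only the second passed the technical limit.

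The ULK1 initiation complex stayed within the technical limit on both arrays by the brightest probe of each gene, its 5 sunitinib ratios running from -0.01 to 0.22. ULK1, the kinase that receives signals from mTORC1 and AMPK, had scaled signals of 6.83, 6.22 and 7.98 and the highest sunitinib ratio, 0.22 ± 0.20. Its paralogue ULK2 had the lowest, -0.01 ± 0.21, but a dim second ULK2 probe gave 0.94 ± 0.38, which is past the limit. On the cordyceps array RB1CC1, the scaffold FIP200, was highest at 0.20 ± 0.20 and the adaptor ATG13 lowest at -0.38 ± 0.23. A second ATG13 probe, for another transcript, gave 0.01 ± 0.30 for cordyceps and so did not show the lower level. It was above background on the control but not the sunitinib array and gave a sunitinib bound of -0.78, where the probe used gave 0.15 ± 0.22. ATG101, the partner of ATG13, was at 0.04 ± 0.21 and 0.11 ± 0.21.

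The transport and tethering genes also stayed within it. FYCO1, which links autophagosomes to kinesin, had scaled signals of 8.82, 7.96 and 10.6, with ratios of -0.15 ± 0.20 and 0.26 ± 0.20. EPG5, a tether in fusion with the lysosome, had 3.85, 3.97 and 3.10, with ratios of 0.04 ± 0.20 and -0.31 ± 0.21.

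**Figure D5:**
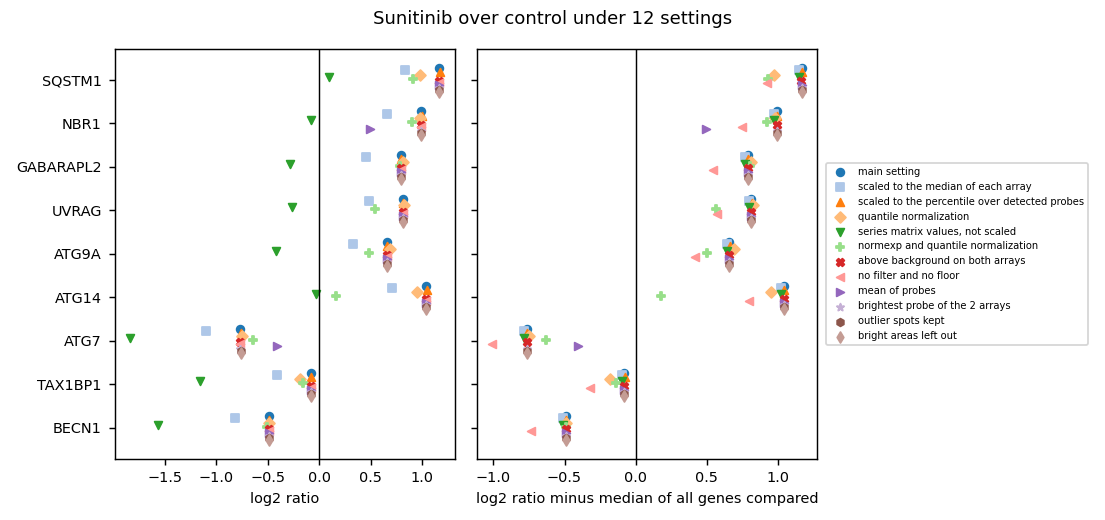
Log2 ratio on the sunitinib array over the control for 9 autophagy genes under 12 processing settings (symbols), as computed (left) and minus the median of all genes compared under the same setting (right). Without scaling (green triangles) every ratio on the left moves down, and only SQSTM1 of the 6 genes above 1.5-fold stays above 0 there. On the right those 6 lie above 0 and ATG7 and BECN1 below 0 in every setting shown.

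Other genes of the pathway were taken from 5 lists with 74 names in all. On the cordyceps array 2 of 69 compared (2.90%) were more than 2-fold higher and 0 lower, beside 2.93% and 2.74% of all genes. ATG16L2, a paralogue of ATG16L1, had scaled signals of 9.89, 20.3 and 11.2, with a ratio of 1.04 ± 0.20 for cordyceps. YKT6, a SNARE of autophagosome fusion, was at 3.20 ± 0.20, but its probe lay in the bright area of the cordyceps array and no value was left without that area.

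On the sunitinib array 6 of 70 (8.57%) were more than 2-fold higher and 1 (1.43%) was lower, beside 6.41% and 6.49% of all genes. Of the higher genes, 4 were organelle and mitophagy receptors or kinases, from a list of 17 with a median log2 ratio of 0.40. PINK1, the kinase that marks damaged mitochondria, had scaled signals of 3.42, 3.42 and 8.78 and a ratio of 1.36 ± 0.20. NCOA4, the receptor for ferritin, had 76.0, 49.8 and 168, so that it was above the control with sunitinib at 1.15 ± 0.20 and below it with cordyceps at -0.61 ± 0.20. TEX264, a receptor for the endoplasmic reticulum, had 3.75, 2.86 and 8.52, with 1.18 ± 0.20 for sunitinib. SEC62, another such receptor, was well above background on the sunitinib array only and after scaling was at least 6.01-fold higher there. Its processed signals were 17.5 on the control, 17.7 on the cordyceps and 52.0 on the sunitinib array. RETREG1, a receptor for the endoplasmic reticulum on the same list, went the other way. Its scaled signals were 2.36, 1.58 and 1.19, with a sunitinib ratio of -0.98 ± 0.22, or 1.98-fold lower.

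TP53INP1, a p53 target that binds ATG8 proteins, was also higher with sunitinib, at 1.34 ± 0.20. PRKAG2, a regulatory subunit of the energy sensor AMPK, was the only gene of these lists more than 2-fold lower. Its scaled signals were 14.3, 18.01 and 5.22, and its sunitinib ratio was -1.45 ± 0.20. The transcription factor list had a sunitinib median of 0.33 over 6 genes. TFEB, at scaled signals of 16.1, 17.0 and 26.9, and FOXO1, at 1.66, 1.54 and 3.10, were its members past 1.5-fold, with ratios of 0.73 and 0.90. Their processed signals on the control and sunitinib arrays were 2657 and 2101 for TFEB and 274 and 242 for FOXO1. Both were thus below the control without scaling, and neither was recomputed under the alternatives. Of the remaining lists, the SNARE and tethering genes had a median of -0.04 over 12 genes, the mTORC1, AMPK and nutrient genes 0.06 over 22, and the paralogues and cofactors -0.02 over 13. All 74 names together had a sunitinib median of 0.08 over 70 genes and a cordyceps median of -0.02 over 69.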

How the data were processed

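Cy3-labelled RNA of 3 TK-10 cultures was hybridised to single-colour Agilent arrays. Scanner output of Feature Extraction 11.5.1.1 (header build hg19) was deposited per array, with intensity on a linear scale, and a table of processed values that equalled the processed intensity to within 0.01% for at least 99.95% of probes and was not scaled between arrays. The study's methods describe another array and a 2-colour ratio, and only their 2-fold limit was used.

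Control and outlier spots were left out, repeated spots were averaged by probe, and log2 processed intensity less the array's 75th percentile was taken. Probes were named by RefSeq accession through a GRCh38.p14 gene table (31104 of 58201 probes, names only). A gene was compared where its brightest probe over the 3 arrays was well above background on either array of the pair. A dim side was raised to the lowest signal above background, which makes the ratio a bound, and where that bound was not above 1 no fold is given and the gene counts as 0 in medians. The technical error combined both deposited signal errors, and probes in repeated spots had a median SD of 0.049 to 0.059 (log2). Bright areas were windows of 7 by 7 spots with a median more than 1 (log2) over the other arrays.

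The autophagy genes and the pathway lists were chosen with earlier results of these data known. Every gene past 1.5-fold, the highest and lowest of each group, all ATG8 genes and receptors, and pathway genes past 2-fold are named, except 1 that is counted but not reported here. AMBRA1, PIK3R4, WDR45, ATG2B, ATG101, ATG3, ATG4D, ATG10, ATG12, ATG16L1, TFEB, FOXO1 and RETREG1 were named after their values were seen, as were the counts past the technical limit. Python 3.11.15, numpy 2.4.6, pandas 2.3.3, R 4.3.3 and limma 3.58.1 were used, and the calculation was tested on simulated data. Alternatives changed the scaling, background correction (normexp, offset 50, on median signals), filter, probes, outlier spots and bright areas.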

Additional observations from a re-analysis of the deposited data

How the results depend on the processing

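Each result was recomputed under 11 alternatives. Their use on the counts past the technical limit and on pathway genes was chosen after seeing the data. Scaling moved the most. With each array scaled to its median, the median of all genes shifted to 0.18 for cordyceps and -0.31 for sunitinib. The autophagy genes then had a cordyceps median of 0.15, with 4 more than 1.5-fold higher and 8 higher and 0 lower past the technical limit, and a sunitinib median of -0.22, with 0 more than 2-fold higher, 1 more than 2-fold lower, 3 and 8 more than 1.5-fold higher and lower, and 4 and 12 higher and lower past the limit. On the deposited values without scaling (all genes -0.24 and -1.05), the cordyceps median was -0.30, with 2 more than 1.5-fold lower and 0 higher and 12 lower past the limit, and the sunitinib median was -0.96, with 0 and 18 more than 2-fold, 0 and 33 more than 1.5-fold and 0 and 34 past the limit, higher and lower. There ATG14 reversed to -0.032, UVRAG to -0.26, ATG9A to -0.41, GABARAPL2 to -0.28 and NBR1 to -0.079. Relative to the median of all genes, 6 were more than 1.5-fold higher and 1 lower on the sunitinib array under both scalings, but 4 and 4 with no filter, where the median of the autophagy genes was -0.13 relative to that of all genes. Quantile normalization left 0 more than 2-fold higher with sunitinib and 0 higher past the limit with cordyceps, as did normexp with quantile normalization, which left 3 more than 1.5-fold higher with sunitinib. With no filter 1 was more than 1.5-fold higher with cordyceps, and with the mean of probes 0 were more than 1.5-fold lower with sunitinib. The causes were not tested, except that scaling moves all genes of an array together and the mean of probes brings in the second ATG7 probe. Of the medians and counts under the alternatives, 147 stayed within 0.1 (log2) or 1.5 times and 29 moved. Of the ratios of single genes, 824 stayed within their technical error, or 0.2 where none was given. A further 190 moved past it and 5 reversed. No paired analysis was possible because each condition has 1 array, and no array could be left out. ATG14 had no cordyceps value where both arrays had to be above background, and YKT6 none without the bright areas. Dim signals limit ATG14 and SEC62.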
